A study of Mus musculus with 12 samples.

Results

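The comparison described here sets Stat3 knockout against Chi3l1 knockout glands of MIC mice, a mouse model of breast cancer in which doxycycline switches on the polyoma middle T oncogene and Cre recombinase in the mammary epithelium. Its members are 8 of the 12 libraries of the series, chosen by genotype label: 4 named MIC Stat3 ko and 4 named MIC Chi3l1 ko, written here as Stat3 ko 1 to 4 and Chi3l1 ko 1 to 4. The other 4, MIC WT, enter as a reference level. All mice were FVB/N females, were given 2 mg/ml doxycycline in the drinking water and carried 2 wk in the sample titles, and in every group the RNA came from whole hyperplastic glands in which the oncogene had been induced. The labels state neither the alleles nor the promoter that drives the inducer, nor whether Chi3l1 was deleted in every cell or in the epithelium alone, and cells of the gland that do not make Cre keep a floxed gene. They give no batch, litter or pairing, and leave unsaid how samples within a group are separate, so that p-values measure the spread between these samples, which may be technical.

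STAT3 is a transcription factor that cytokines of the interleukin 6 family activate through receptors sharing the chain gp130. Janus kinases phosphorylate it, and the dimer enters the nucleus and binds a palindromic DNA site. In the mammary gland it is known for driving the regression that follows weaning, and in liver and many epithelia for inducing acute phase proteins. Chi3l1 encodes a secreted chitinase-like protein without enzyme activity that macrophages, neutrophils and epithelial cells release, and its expression can follow STAT3. Comparing the knockouts shows what differs between glands in which the gene of the factor was targeted and glands in which the gene of this one secreted protein was.

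The values are FPKM, that is, fragments per kilobase of gene, scaled by 1 total per library. That total was not the count total of the library. It lay below it in Stat3 ko 1 (1.667e+07 against 17998035) and above it in every other library, as in Stat3 ko 3 (2.09941e+07 against 18473840). A difference is Stat3 ko minus Chi3l1 ko on the log2(FPKM + 1) scale with limma's standard error (SE), 4 libraries per group. A gene was called at an adjusted p under 0.05 in limma, with the spread shared by all 12 libraries, among the 13643 genes that reached 1 FPKM in 4 or more libraries. Libraries held 16217143 to 22607123 counts. Mitochondrially encoded genes took 1.15% to 4.79% of counts in Stat3 ko and 1.03% to 2.22% in Chi3l1 ko, with Stat3 ko 1, Stat3 ko 2 and Chi3l1 ko 2 above 2%. The median within-group SD per gene was 0.298 in Stat3 ko, 0.146 in Chi3l1 ko and 0.136 in WT. On the first principal component of the 8 knockout libraries, which held 48.8% of the variance, Chi3l1 ko 2 scored 1.53, near Stat3 ko 4 at 0.584, while the other Chi3l1 ko libraries scored 37.7 to 47.5. The labelled tissue was present in all 8: the luminal keratin gene Krt8 stood at 300.1 to 796 FPKM in Stat3 ko and 541 to 743 in Chi3l1 ko, and the basal keratin gene Krt14 at 7.27 to 41.9 and 38.1 to 52.2.

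The promoters of a pair of genes from the top of the differences are printed to show where a STAT motif lies, which these RNA data do not test. Both are the 250 bases before the RefSeq start site on GRCm38.p6, the C57BL/6J reference and not the FVB/N genome of these mice, and both lie on the minus strand. Capitals mark the motif TTCNNNGAA, the consensus site of STAT dimers, which reads the same on both strands and was searched without any other motif. Saa1 (chr7:46742981-46743230) encodes an acute phase protein and had the largest fall of all. Pinc (chr1:73407570-73407819) is a noncoding RNA gene expressed in the pregnant and regressing gland.
Saa1: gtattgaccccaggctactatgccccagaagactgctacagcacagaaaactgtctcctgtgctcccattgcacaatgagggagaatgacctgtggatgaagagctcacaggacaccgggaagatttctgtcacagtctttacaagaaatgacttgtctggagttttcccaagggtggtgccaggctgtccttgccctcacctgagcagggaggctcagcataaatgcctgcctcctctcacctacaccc
Pinc: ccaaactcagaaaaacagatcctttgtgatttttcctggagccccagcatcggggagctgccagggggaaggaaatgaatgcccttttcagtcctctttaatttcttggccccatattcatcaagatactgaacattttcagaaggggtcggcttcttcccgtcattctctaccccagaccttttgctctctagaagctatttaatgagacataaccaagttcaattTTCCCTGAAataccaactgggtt
The Saa1 window holds no match, and the Pinc window holds TTCCCTGAA from 23 to 15 bases before the start. Of the 12 largest falls 11 matched a promoter in the table, and Pinc was the 1 with the motif. The motif was in 7.02% of all 32851 promoters of this length and in 7.1% of the 9691 matched genes tested. It was in 63 of 818 matched genes called lower (7.70%) and in 39 of 506 called higher (7.71%). A match describes letters in a window and does not show binding.

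Both targeted genes followed the labels. Stat3 (ENSMUSG00000004040, chr11:100885098-100939540 on GRCm38) stood at 18.7, 17.8, 14.3 and 12.2 FPKM in the Stat3 ko libraries and at 49.9, 46.7, 53.3 and 50.1 in the Chi3l1 ko libraries, so the groups did not overlap. The Stat3 ko mean was 31.5% of the Chi3l1 ko mean, and the difference was −1.62 ± 0.12 (limma adjusted p = 5.5e-05). The RNA came from whole tissue, in which fewer cells of a type and less RNA per cell cannot be told apart. Chi3l1, listed under its mouse symbol Chil1 (ENSMUSG00000064246, chr1:134182176-134190181), had 823, 249, 638 and 720 counts in Stat3 ko and 1, 2, 0 and 0 in Chi3l1 ko. In CPM, which scales counts to the library total, this was 34.4 against 0.0380, a ratio of 906 with a 95% interval of 310 to 4395 that covers counting error only. In FPKM the Stat3 ko libraries held 17.6, 4.92, 10.8 and 13.6, below all 4 WT libraries at 125, 212, 160.0 and 107. Thus Chil1 was low in both knockouts against WT, and the comparison is between glands with little and glands with next to no Chil1 mRNA. For each gene the exact two-sided permutation p between the knockouts was 0.0286, the smallest that 4 against 4 libraries can give.

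Across all genes, 1799 of 13643 were called, or 13.2%. In Stat3 ko 708 were higher (5.19%) and 1091 lower (8.0%), with median sizes of 0.95 and −0.69, and the median difference of all genes tested was −0.02, with 48.0% of them positive. Differences of at least 1 numbered 328 higher and 253 lower. These counts rested on single libraries: without Chi3l1 ko 1 there were 176 higher and 435 lower, without Chi3l1 ko 3 there were 244 and 529, and without Chi3l1 ko 4 there were 200 and 486. Without Stat3 ko 2 there were 427 and 647, and without Stat3 ko 4 there were 1242 and 1648. For this reason each group of genes below is given with the number of calls that held in all 12 fits that leave out 1 library, called steady calls. Over all genes there were 568 of these, 159 higher (1.17%) and 409 lower (3.0%). The 12 fits still share their spread with WT, whose median SD was below that of Stat3 ko. In the fit of the 8 knockout libraries alone 166 genes were higher and 339 lower. All 4 Stat3 ko libraries lay below all 4 Chi3l1 ko libraries for 10.2% of genes and above them for 6.85%, and the largest falls and rises named below were picked among such genes. The counts given for each list of genes stand against these shares.

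**Figure D1:**
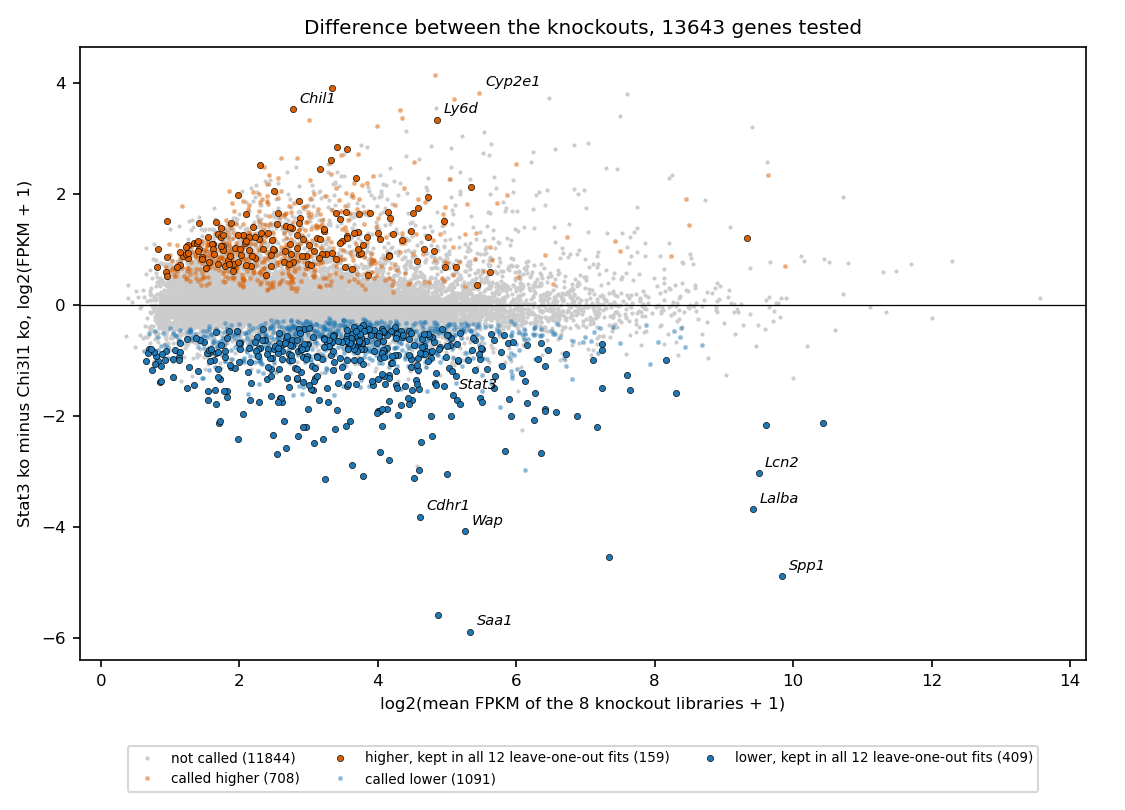
Difference between the knockouts for each of the 13643 genes tested (vertical axis, Stat3 ko minus Chi3l1 ko, log2(FPKM + 1)) against the mean level in the 8 knockout libraries (horizontal axis, log2). Orange points are the 708 genes called higher and blue points the 1091 called lower in limma, and outlined points are the 159 and 409 steady calls. Lcn2, Lalba and Spp1 combine a high level with a large fall.

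The largest falls of all were in a pair of acute phase genes. Saa1 (ENSMUSG00000074115, chr7:46740497-46742980) and Saa2 (ENSMUSG00000057465, chr7:46751790-46754313) encode serum amyloid A, a lipoprotein-associated acute phase protein. Saa1 stood at 0, 0.38, 0.269 and 0.278 FPKM in Stat3 ko and 78.5, 63.4, 134 and 38.9 in Chi3l1 ko, which is 44 counts in all against 16666. It fell by 5.89 ± 0.31 (adjusted p = 2.9e-06), and Saa2 fell by 5.59 ± 0.29, from 28.7 to 88.5 FPKM to 0.0238 to 0.198. They are near-identical neighbours, so how reads divide between them is uncertain. For both genes all 4 Stat3 ko libraries were near 0 and lay below all 4 Chi3l1 ko libraries.

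The next falls came in genes of several kinds. Spp1 encodes osteopontin, a secreted phosphoprotein of milk and matrix, and read 38.2, 53.9, 47.9 and 116 FPKM in Stat3 ko against 1581, 2111, 2039 and 1363 in Chi3l1 ko, a fall by 4.88 ± 0.44 (adjusted p = 0.00012). Stat3 ko 4 was the highest of its group for Spp1 and still lay far below every Chi3l1 ko library. Clca3a2, a member of the calcium-activated chloride channel regulator family, read 31.9, 3.54, 11.2 and 15.7 against 339.5, 303, 253 and 336 and fell by 4.54 ± 0.45. Its paralog Clca3a1, whose reads may be shared with it, fell by 2.19 ± 0.24. Cdhr1, a cadherin-related membrane protein gene, had the smallest SE of the 12, at 3.05, 1.41, 2.11 and 2.52 against 46.4, 35.8, 48.8 and 46.9, and fell by 3.81 ± 0.19 (adjusted p = 2.9e-06). Foxi1, a transcription factor of ion-transporting epithelial cells, fell by 3.12 ± 0.48. The chloride channel gene Clic6 fell by 3.09 ± 0.66, from 14.3 to 38.7 FPKM to 0.219 to 11.02 with Stat3 ko 1 the highest of its group. The Clic6 call ended with edgeR on the counts (adjusted p = 0.0916) and in a limma fit of the 8 knockout libraries alone (0.0556).

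All 12 of the largest falls were steady calls, from −5.89 to −3.03. Set against WT, the same genes differed by −5.39 to −2.38 in Stat3 ko and by −0.47 to 0.75 in Chi3l1 ko, with SE of 0.19 to 0.66 in Chi3l1 ko. The 3 comparisons share libraries, so these values stand side by side and are not independent.

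Milk and alveolar genes had the most falls of the 56 gene lists. Milk protein genes are switched on in pregnancy by prolactin through STAT5. Of 16 tested, 12 fell and 0 rose, against 8.0% and 5.19% of all genes, 8 of the falls were steady, and the median difference was −1.99. The fit of the 8 knockout libraries alone had 9 falls. Wap, the whey acidic protein gene, stood at 1.67, 4.94, 3.54 and 3.31 FPKM in Stat3 ko and 82.4, 82.2, 46.5 and 73.98 in Chi3l1 ko, a fall by 4.07 ± 0.33 (adjusted p = 6.4e-05). Lalba, which encodes the alpha-lactalbumin subunit of lactose synthase, stood at 79.1, 134, 80.7 and 101 and 1487, 911, 1462 and 1214, a fall by 3.68 ± 0.204 (adjusted p = 4.4e-06). Neither gene had any overlap between the groups. The milk L-amino acid oxidase gene Lao1 fell by 3.05 ± 0.42, the bile salt-stimulated lipase gene Cel by 2.58 ± 0.28, and Mfge8, which encodes a milk fat globule protein that bridges dying cells to phagocytes, by 1.59 ± 0.17. Pinc fell by 3.14 ± 0.37, from 9.25 to 19.97 FPKM to 0.497 to 1.92. The mean level of the milk list was 4.01, 4.92, 4.96 and 4.75 in Stat3 ko 1 to 4 and 7.04, 6.902, 5.92 and 6.47 in Chi3l1 ko 1 to 4 on the log2(FPKM + 1) scale, so every Stat3 ko library lay below every Chi3l1 ko library.

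Luminal epithelial markers, by contrast, overlapped between the groups in their mean level, though not in each gene. The mean level of 19 luminal epithelial markers was 4.902, 4.098, 5.09 and 5.06 in Stat3 ko and 4.75, 4.597, 4.68 and 4.76 in Chi3l1 ko, with Stat3 ko 2 the lowest and Stat3 ko 3 the highest. Among them 3 fell and 3 rose, with a median of −0.36. In 4 of the 19 all Stat3 ko libraries lay below all Chi3l1 ko libraries, and in 2 above, against 10.2% and 6.85% of all genes. Krt8 differed by −0.36 ± 0.31 (adjusted p = 0.447) and Krt18, its partner keratin, by −0.13 ± 0.295 (adjusted p = 0.797). For Krt8, Stat3 ko 1 and 2 were the lowest libraries and Stat3 ko 3 and 4 the highest of the 8. Muc1, an apical mucin of luminal cells, was the steady fall, at 3.68, 6.28, 7.31 and 14.6 FPKM in Stat3 ko and 24.3, 23.5, 29.6 and 26.2 in Chi3l1 ko, and Ly6d was the steady rise. Basal markers had 1 rise among 9 tested and no steady call, 5 of the 9 were positive and the median was 0.38, which turned to −0.40 without Stat3 ko 1. EdgeR called 3 of them higher. The basal keratin genes lay on the negative side: Krt5 differed by −1.26 ± 0.56 (adjusted p = 0.147) and Krt14 by −0.99 ± 0.48 (adjusted p = 0.18).

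Of 10 mucins and other secreted luminal genes, 8 fell and 1 rose, with a median of −1.23. Without Stat3 ko 2, and in the fit of the 8 knockout libraries alone, 5 fell, and 5 of the 8 falls were steady. They included Muc1, which fell by 1.72 ± 0.27, and Muc4, a large membrane mucin, which fell by 1.33 ± 0.22.

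**Figure D2:**
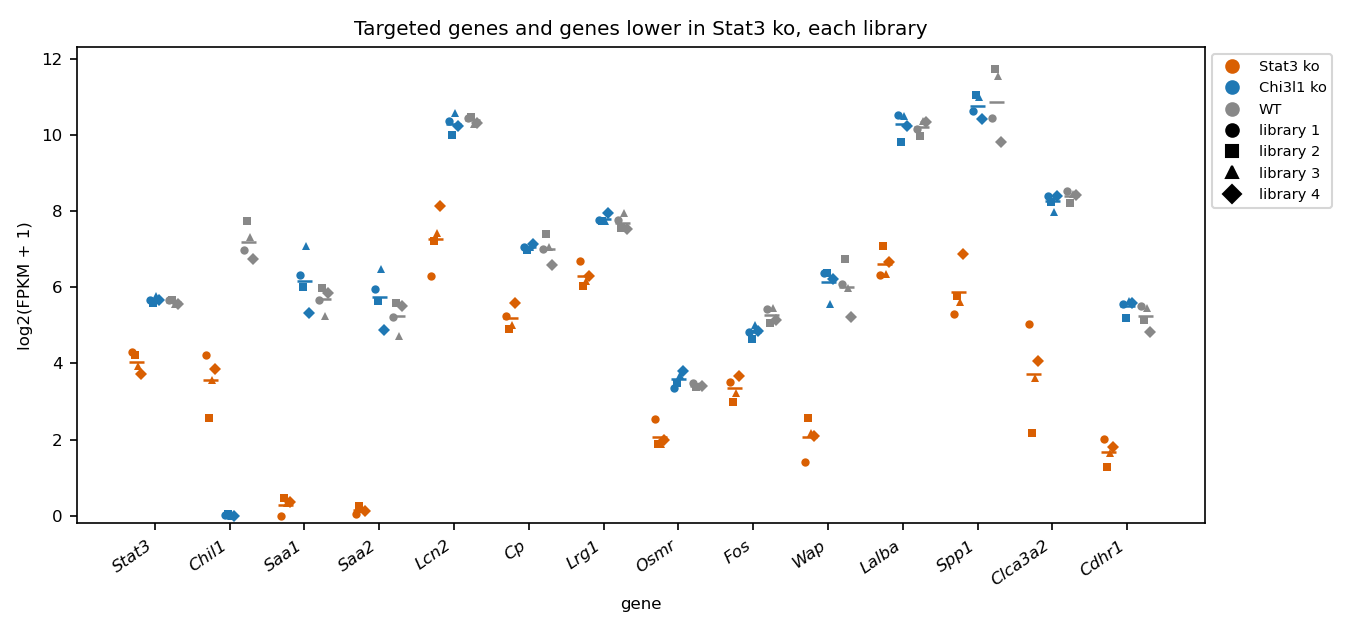
Level of 14 genes in each library (vertical axis, log2(FPKM + 1)), with Stat3 ko in orange, Chi3l1 ko in blue and WT in grey, marker shape for the library number and a line at the group mean of the plotted values. For Stat3 and for the 12 genes to the right of Chil1, all 4 Stat3 ko points lie below all 4 Chi3l1 ko points, and Chil1 is near 0 in Chi3l1 ko alone.

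Genes regulated by STAT3 fell in part. Of 26 listed targets, all tested, 8 fell and 0 rose, all 8 falls were steady, and the median difference was −0.16. The fit of the 8 knockout libraries alone also had 8 falls. Lcn2, which encodes lipocalin 2, a protein that binds bacterial iron carriers, stood at 77.2, 147, 173 and 282 FPKM in Stat3 ko and 1321, 1033, 1544 and 1209 in Chi3l1 ko and fell by 3.03 ± 0.31 (adjusted p = 0.00021). Igfbp5, which encodes an insulin-like growth factor binding protein made in the regressing gland, stood at 239, 232, 185 and 559 and 1215, 1188, 1594 and 1030.1 and fell by 2.17 ± 0.31 (adjusted p = 0.0022). Both genes were highest in Stat3 ko 4 among the Stat3 ko libraries, without reaching the Chi3l1 ko range. Cd14, the lipopolysaccharide co-receptor gene, fell by 1.99 ± 0.18, Lrg1, a secreted leucine-rich glycoprotein gene, by 1.499 ± 0.15, and Bcl3, a nuclear partner of NF-kappaB, by 1.11 ± 0.22. The immediate-early transcription factor gene Fos, at 10.4, 6.92, 8.32 and 11.7 FPKM against 27.2, 24.1, 31.01 and 28.1, fell by 1.49 ± 0.15 (adjusted p = 0.00024). The AP-1 member Fosl2 fell by 1.03 ± 0.16, while Egr2, another immediate-early factor, rose by 0.72 ± 0.12 (adjusted p = 0.00485).

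Acute phase genes gave 6 falls and 0 rises among 13 tested, all 6 steady, with a median of −0.68. The fit of the 8 knockout libraries alone also had 6 falls. Besides Saa1, Saa2, Lcn2 and Lrg1, ceruloplasmin (Cp), the plasma copper oxidase, stood at 36.8, 29.05, 31.1 and 46.9 FPKM in Stat3 ko and 134, 126, 133 and 139 in Chi3l1 ko and fell by 1.88 ± 0.18. The list median turned to 0.13 without Stat3 ko 1, Stat3 ko 2 and Chi3l1 ko 2, the libraries above 2% mitochondrial counts. In that fit 3 members were called higher. Iron genes overlapped with these: of 13 tested, 4 fell, 3 steadily, and Trf, which encodes the iron carrier transferrin, stood at 29.5, 16.3, 18.1 and 21.2 FPKM and 111, 109.5, 179 and 164 and fell by 2.67 ± 0.24 (adjusted p = 0.00013).

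Upstream of STAT3 the receptors moved in both directions. Osmr, the oncostatin M receptor chain, stood at 4.804, 2.72, 2.67 and 2.95 FPKM in Stat3 ko and 9.22, 10.2, 11.9 and 12.98 in Chi3l1 ko and fell by 1.51 ± 0.15 (adjusted p = 0.00018). Il6ra, the chain that binds interleukin 6, stood at 7.41, 9.73, 6.74 and 5.21 and 4.08, 3.64, 3.72 and 4.01 and rose by 0.74 ± 0.14 (adjusted p = 0.00804). Neither showed overlap between the groups, and of 6 receptor genes tested 4 rose and 1 fell, with these 2 the steady calls, and 2 rose without Stat3 ko 1 or without Stat3 ko 2. In the fit of the 8 knockout libraries alone 1 rose and 1 fell. Socs3, the feedback inhibitor that STAT3 induces, did not pass: it stood at 6.12, 14.1, 8.996 and 8.24 FPKM in Stat3 ko and 9.85, 15.4, 12.1 and 6.96 in Chi3l1 ko, ranges that overlapped, and differed by −0.22 ± 0.24 (adjusted p = 0.56). Socs5, another inhibitor of the family, fell by 0.48 ± 0.09, a call that ended without the libraries above 2% mitochondrial counts (0.0513).

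On the Chi3l1 side, Chil1 was the called member of 3 chitinase-like genes tested. Chit1, an active chitinase encoded next to it, stood at 0.859, 5.73, 16.9 and 7.06 FPKM in Stat3 ko and 15.7, 8.15, 11.6 and 19.1 in Chi3l1 ko and differed by −1.11 ± 0.56 (adjusted p = 0.199). Of 7 proposed receptors and partners of CHI3L1, 1 fell: Itgav, the integrin alpha V chain, which fell by 0.75 ± 0.14 (adjusted p = 0.00796).

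Genes of the secretory pathway fell as well. Of 18 ER stress genes tested, 10 fell and 0 rose, 4 of them steadily, with a median of −0.54, and 6 fell without Stat3 ko 1 or without Stat3 ko 2. In the fit of the 8 knockout libraries alone 2 fell. Xbp1, the transcription factor that expands the secretory apparatus, stood at 90.2, 87.9, 94.4 and 139 FPKM in Stat3 ko and 314, 250.3, 314 and 303 in Chi3l1 ko and fell by 1.53 ± 0.15 (adjusted p = 0.00019). The pseudokinase gene Trib3 fell by 1.37 ± 0.15, the ER chaperone gene Hspa5 by 0.99 ± 0.21 and the disulfide isomerase gene Pdia6 by 0.88 ± 0.17. The last pair missed the threshold in the fit of the 8 knockout libraries alone (0.0625 for Hspa5 and 0.0502 for Pdia6). Nqo1, a quinone reductase induced by NRF2, had a wide gap at 4.56, 2.21, 2.39 and 5.62 FPKM against 31.03, 30.2, 32.2 and 27.1 and fell by 2.795 ± 0.21 (adjusted p = 6.2e-05), within a list of 12 NRF2 genes in which 3 fell and the median was 0.04. The glycolysis and hypoxia list of 22 held 5 falls and 1 rise, with a median of 0.04. Ndrg1, a gene induced by low oxygen, fell by 1.998 ± 0.16. Pfkl encodes the liver form of phosphofructokinase, read 37.1 to 40.9 FPKM against 57.5 to 62.6 and fell by 0.63 ± 0.08, and both falls were steady. The growth factor gene Tgfa fell by 1.09 ± 0.17, within 9 genes of the EGF family and its receptors of which 1 rose and 2 fell. Igf2r, a receptor that clears IGF2, fell by 0.75 ± 0.15, within 11 IGF genes of which 2 rose and 2 fell. The Igf2r call ended in the fit of the 8 knockout libraries alone (0.0574).

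Neutrophil genes differed gene by gene. The calcium-binding protein gene S100a8 stood at 1.297, 11.1, 3.09 and 1.98 FPKM in Stat3 ko and 24.2, 23.7, 32.1 and 25.1 in Chi3l1 ko and fell by 2.66 ± 0.399 (adjusted p = 0.00292). Its partner S100a9 stood at 0.46, 20.2, 2.65 and 0.507 and 0.616, 1.04, 1.63 and 0.644, overlapping ranges in which Stat3 ko 2 was highest, and differed by 0.89 ± 0.698 (adjusted p = 0.405), while DESeq2 on the recovered counts called it higher at 2.63 (adjusted p = 0.0436) and edgeR gave 2.62 without a call (0.117). Cxcl1, a chemokine that attracts neutrophils, stood at 0.544, 1.24, 1.19 and 1.04 and 3.41, 3.16, 3.45 and 3.71 and fell by 1.16 ± 0.14 (adjusted p = 0.00062). Of 26 neutrophil markers 10 were tested, of which 3 fell and 1 rose. Of 15 listed components of neutrophil extracellular traps, the DNA webs that neutrophils cast, 11 were tested. Among these, 6 rose and 2 fell, with Lcn2 the steady call, and 2 rose without Stat3 ko 2 and 3 without Chi3l1 ko 2. The fit of the 8 knockout libraries alone had 1 rise and 1 fall. Proteinase 3 (Prtn3), a protease of neutrophil granules, fell by 1.18 ± 0.26, a call that ended without Chi3l1 ko 3 (0.0514) and in the fit of the 8 knockout libraries alone (0.0683). Padi4, the enzyme that citrullinates histones in these traps, stood at 0.31, 1.08, 2.06 and 1.98 FPKM in Stat3 ko and 2.75, 2.66, 2.42 and 2.99 in Chi3l1 ko without overlap and differed by −0.73 ± 0.23 (adjusted p = 0.0571). It passed without Stat3 ko 3 (0.0323) or without Stat3 ko 4 (0.0248).

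Steady rises in Stat3 ko were found among dendritic, cytotoxic, macrophage and complement genes. Of 13 dendritic cell markers tested 7 rose and 0 fell, 3 steadily, with a median of 0.87. The fit of the 8 knockout libraries alone had 2 rises. Fscn1, which encodes the actin-bundling protein fascin of mature dendritic cells, stood at 38.1, 65.9, 56.3 and 23.95 FPKM in Stat3 ko and 12.6, 15.3, 13.5 and 15.8 in Chi3l1 ko and rose by 1.53 ± 0.27 (adjusted p = 0.00697). Flt3, a receptor that dendritic cell precursors need, reached 1 FPKM in the Stat3 ko libraries alone, so that it could be tested through that group only, and rose by 0.87 ± 0.17, from 0.2 to 0.469 FPKM to 1.11 to 2.31. Wdfy4, which dendritic cells need to present antigen to CD8 T cells, rose by 1.404 ± 0.2997, and its call ended in the fit of the 8 knockout libraries alone (0.0640).

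Of 12 cytotoxic and NK cell genes 6 rose and 0 fell, 3 of them steadily, with a median of 0.94, and 3 rose without Stat3 ko 2. In the fit of the 8 knockout libraries alone 2 rose. Ccl5, a chemokine that activated T and NK cells make, stood at 57.3, 101, 83.4 and 23.2 FPKM in Stat3 ko and 9.803, 10.8, 21.3 and 10.5 in Chi3l1 ko and rose by 2.13 ± 0.41 (adjusted p = 0.00982). Stat3 ko 4 and Chi3l1 ko 3 lay close together for Ccl5, and the call ended without the libraries above 2% mitochondrial counts (0.0736). Klrk1, which encodes the activating receptor NKG2D, rose by 0.68 ± 0.14, and Ncr1, which encodes the NK receptor NKp46, by 1.23 ± 0.27. Outside the Stat3 ko libraries Klrk1 reached 1 FPKM in WT 2 alone, so that it was tested through the group in which it is high. The Ncr1 call ended in the fit of the 8 knockout libraries alone (0.0621).

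Lyz2, the lysozyme gene of macrophages and granulocytes, stood at 746, 1049.8, 717 and 1107 FPKM in Stat3 ko and 393, 349.9, 419 and 368 in Chi3l1 ko and rose by 1.22 ± 0.23 (adjusted p = 0.00805). Among 21 macrophage and monocyte markers it was 1 of 5 rises, and Cd14 was the fall. The fit of the 8 knockout libraries alone had 1 rise and 1 fall in this list. Complement genes rose in 4 of 15 cases, 2 of them steady. Cfp, which encodes properdin, a stabiliser of the alternative pathway, stood at 35.5, 41.4, 29.1 and 39.3 and 14.5, 17.3, 14.96 and 12.5 and rose by 1.24 ± 0.17 (adjusted p = 0.00177), and the protease gene C1s1 rose by 1.66 ± 0.33. Vsir, which encodes the checkpoint protein VISTA, stood at 33.9, 21.3, 15.2 and 17.4 and 7.48, 10.3, 9.26 and 7.81 and rose by 1.18 ± 0.23 (adjusted p = 0.0107). Cd274, the gene of the PD-1 ligand PD-L1, stood at 12.7, 14.1, 9.68 and 9.94 and 4.57, 6.37, 7.34 and 4.18 and rose by 0.94 ± 0.21. The Cd274 call ended without Chi3l1 ko 1 (0.0615) or Chi3l1 ko 4 (0.0593), with array weights (0.0512) and without the libraries above 2% mitochondrial counts (0.0919).

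The single largest steady rise outside Chil1 and immunoglobulin segments was Ly6d, a membrane-anchored surface protein gene that lymphocyte precursors and some epithelia express. It stood at 60.8, 92.5, 44.8 and 12.4 FPKM in Stat3 ko, 3.14, 3.89, 3.17 and 2.94 in Chi3l1 ko and 6.85, 4.63, 9.98 and 4.495 in WT, so that Stat3 ko 4, the lowest of its group, exceeded every library of the others. The rise was 3.34 ± 0.48 (adjusted p = 0.00223). Thy1, a surface protein gene of T cells and fibroblasts, rose by 1.18 ± 0.21 and the metalloprotease gene Mmp23 by 1.23 ± 0.22, both steadily.

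**Figure D3:**
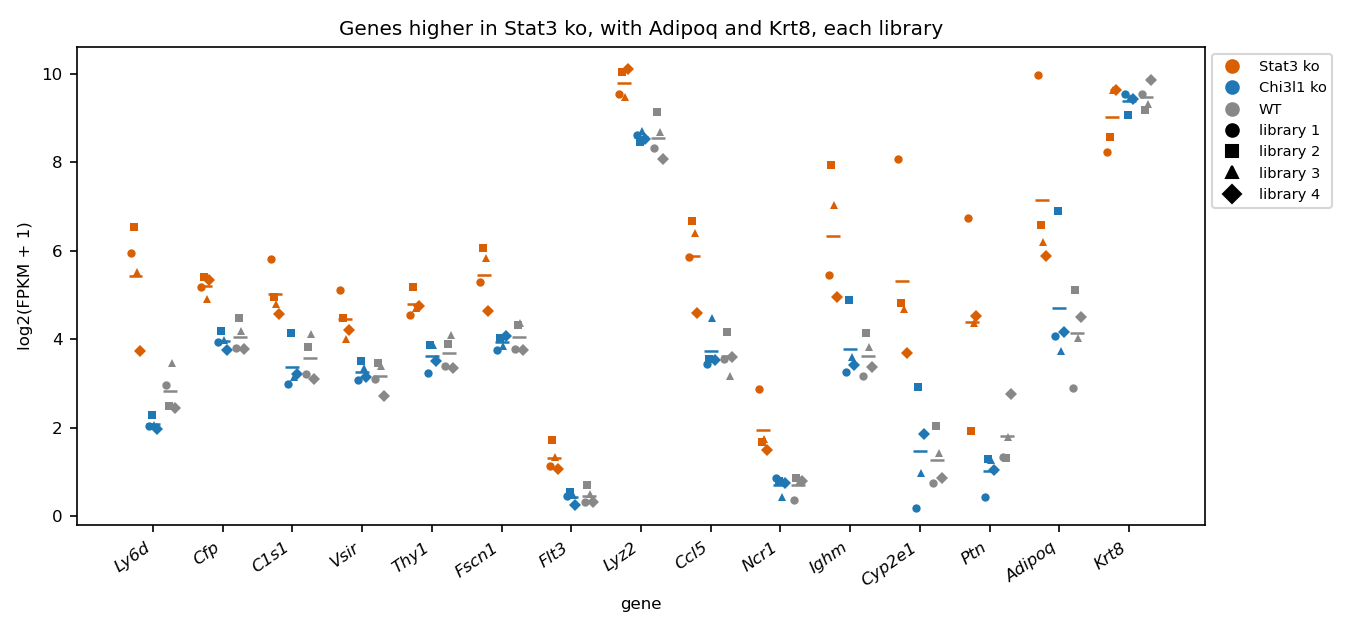
Level of 13 genes called higher in Stat3 ko, with Adipoq and Krt8 for comparison, in each library (vertical axis, log2(FPKM + 1)). Colours, shapes and lines are as in the plot of lower genes. For Ly6d, Cfp, Vsir and Lyz2 the orange and blue points separate, while Adipoq is highest in Stat3 ko 1 and its groups overlap at Chi3l1 ko 2, and Krt8 is not called.

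Lymphocyte genes were high in some Stat3 ko libraries and not in others. Averaged over 19 T cell genes, the level was 2.36, 5.004, 4.203 and 1.92 in Stat3 ko 1 to 4 and 1.65, 1.65, 2.02 and 1.56 in Chi3l1 ko 1 to 4, on the log2(FPKM + 1) scale. The 7 B and plasma cell genes averaged 4.77, 7.26, 5.92 and 2.58 and 2.14, 2.19, 1.84 and 2.78. Stat3 ko 2 and 3 were the highest in both, and Stat3 ko 1 also lay above every Chi3l1 ko library in both, by more for the B and plasma cell genes. The mean of Stat3 ko 4 lay within the Chi3l1 ko range for both lists. In all 4 Stat3 ko libraries 6 of the 19 T cell genes and 3 of the 7 B and plasma cell genes were above every Chi3l1 ko library, against 6.85% of all genes. The 7 were those tested of 15 B and plasma cell genes listed. Of them Cd79a reached 1 FPKM in no Chi3l1 ko library and passed the filter through Stat3 ko 1 to 3 and WT 2. Each of the 19 T cell genes had a positive difference and the median was 1.62. Limma called 1 of them, against 17 by edgeR and 19 by DESeq2 on the recovered counts. Limma called 10 without Stat3 ko 1 and 0 without Stat3 ko 2. On simulated data with equal spread in all groups, DESeq2 made 35 false calls, limma 1 and edgeR 0. Cd3e, a chain of the T cell receptor complex, stood at 1.87, 16.6, 9.79 and 1.18 FPKM and 1.39, 1.42, 2.13 and 1.57 and differed by 1.17 ± 0.55 (adjusted p = 0.169), passing without Stat3 ko 4 (0.0359). The call was on Cd2, an adhesion receptor, which rose by 1.97 ± 0.51 and ended without Stat3 ko 2 (0.0541) or 3 (0.0564) or without Chi3l1 ko 1 (0.0807), 3 (0.0694) or 4 (0.0821). Among B cell genes, Cd79a, a B cell receptor chain, stood at 5.35, 159, 56.4 and 0.0727 and 0.248, 0.373, 0.275 and 0.5 and differed by 3.55 ± 1.204 (adjusted p = 0.0733), passing without Stat3 ko 4 (0.00426) and with array weights (0.0278). On the recovered counts the difference was 7.34 by edgeR (adjusted p = 0.0193) and by DESeq2 (1.21e-05). Of the 7 B and plasma cell genes limma called 2, edgeR 5 and DESeq2 7, and limma called 1 without Stat3 ko 2 or without Chi3l1 ko 2. In the fit of the 8 knockout libraries alone limma called 0 genes of the T cell list and 0 of the B and plasma cell list. Ighm, the mu heavy chain gene, rose by 2.55 ± 0.5999, and this call was lost without Chi3l1 ko 1 (0.0707), 3 (0.0591) or 4 (0.0660). How far these cells contribute to the rises of the cytotoxic and dendritic genes was not tested.

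Immunoglobulin segments made 7 of the 12 largest rises. Of 74 tested, 73 were positive and 15 were called higher, against 48.0% positive and 5.19% called higher of all genes. Segments such as Ighd4-1, Igkj1 and Iglc2 reached 1 FPKM in no Chi3l1 ko library and passed the filter through the Stat3 ko libraries. For such segments the filter set a positive difference and favoured a call. Neither the count of positive segments nor the count called higher is therefore a separate result. Igkv14-111, a kappa variable segment, held 529 counts in Stat3 ko against 54 in Chi3l1 ko and rose by 2.82 ± 0.52 in a steady call that ended without the libraries above 2% mitochondrial counts (0.0666). Ighd4-1, a diversity segment of 11 bases, had a steady call by limma on 15 counts against 0, which in CPM is 5.59 times a floor of 3 counts over the group, with a lower 95% limit of 4.01 once the counting error of both groups is included, and edgeR (0.0565) and DESeq2 (0.0906) did not call it. The other 5 segments, Igkj5, Igkv1-117, Igkv6-15, Igkj1 and Iglc2, rose by 3.23 to 4.15, and all of these calls ended without Stat3 ko 2 (0.0653 to 0.109), Chi3l1 ko 1 (0.0615 to 0.1) or Chi3l1 ko 3 (0.0633 to 0.103). Variable and joining segments are near-identical in parts, so their split of reads is uncertain. Cd209b, a lectin gene of lymphoid tissue macrophages, rose by 2.73 ± 0.67, a call that ended without Chi3l1 ko 1 (0.0710), 3 (0.0674) or 4 (0.0673).

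The mean of the fat genes was higher in the 4 Stat3 ko libraries than in Chi3l1 ko 1, 3 and 4, with Chi3l1 ko 2 among the Stat3 ko values, and muscle genes varied widely within both groups. Averaged over 19 adipocyte genes, the level was 8.99, 6.24, 5.75 and 5.01 in Stat3 ko 1 to 4 and 3.53, 6.16, 3.37 and 3.87 in Chi3l1 ko 1 to 4, and over 6 brown adipocyte genes it was 6.05, 6.42, 4.66 and 2.47 and 1.16, 5.42, 1.28 and 1.56. Chi3l1 ko 2 thus stood with the Stat3 ko libraries in both. Each of the 19 adipocyte genes had a positive difference, the median was 2.34 and 3 were called, against 11 without Chi3l1 ko 2 and 1 without Stat3 ko 1 or without Stat3 ko 2. Without the libraries above 2% mitochondrial counts 15 were called. With all libraries edgeR called 3 and DESeq2 12. The median was 1.51 without Stat3 ko 1, and 0 of the 19 were called in the fit of the 8 knockout libraries alone. The adipokine gene Adipoq stood at 1001, 94.6, 72.8 and 58.1 FPKM in Stat3 ko and 15.8, 118, 12.3 and 16.8 in Chi3l1 ko and differed by 2.45 ± 0.94 (adjusted p = 0.104), passing without Chi3l1 ko 2 (0.0405). The fatty acid carrier gene Fabp4 differed by 2.34 ± 0.92 (adjusted p = 0.109), passing without Chi3l1 ko 2 (0.0380) or Stat3 ko 4 (0.0414). Adipoq (0.039) and Fabp4 (0.0403) also passed in limma without the libraries above 2% mitochondrial counts. Ucp1, the uncoupling protein gene of brown fat, stood at 176, 357, 74.3 and 0.194 and 0.369, 97.7, 0.0306 and 0.274 and differed by 3.74 ± 1.81 (adjusted p = 0.18), passing without Chi3l1 ko 2 (0.0476) or Stat3 ko 4 (0.0211). Cyp2e1, a cytochrome P450 gene of liver and fat, stood at 271, 27.4, 24.7 and 11.9 and 0.149, 6.54, 0.976 and 2.62 and rose by 3.83 ± 0.85, a call that ended without Chi3l1 ko 1 (0.0593) or 3 (0.0520). Ptn, which encodes the growth factor pleiotrophin, stood at 107, 2.79, 19.7 and 22.1 and 0.363, 1.48, 1.43 and 1.06 and rose by 3.37 ± 0.78, a call that ended without Chi3l1 ko 1 (0.0658) or 4 (0.0574). Both calls also ended in the fit of the 8 knockout libraries alone (0.0691 for Cyp2e1 and 0.0717 for Ptn). Skeletal muscle markers ran from 1.77 to 8.07 in Stat3 ko and from 1.49 to 7.698 in Chi3l1 ko. Of 16 tested, 0 were called by limma, edgeR or DESeq2 and 0 had an unadjusted p under 0.05, and the muscle actin gene Acta1 differed by 0.78 ± 2.27.

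**Figure D4:**
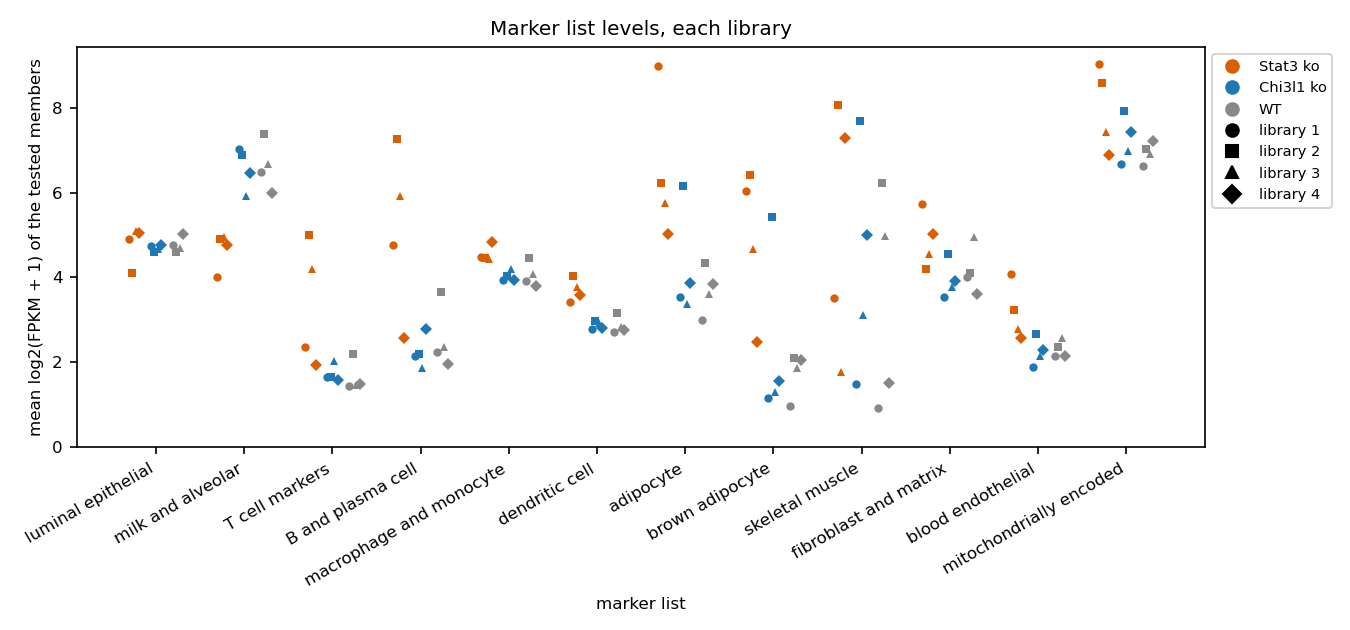
Mean log2(FPKM + 1) of the tested members of 12 marker lists (vertical axis) in each library, coloured by group with marker shape for the library number. Milk genes separate the knockouts, luminal markers overlap, and T and B cell markers are highest in Stat3 ko 2 and 3. Chi3l1 ko 2 stands apart from its group in the fat markers, and muscle markers vary widely within each group.

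Stromal and mast cell genes leaned higher in Stat3 ko. All 22 fibroblast and matrix genes and all 16 blood endothelial genes were positive, with 5 called in each list and medians of 0.87 and 0.85, but the endothelial list had 0 calls without Stat3 ko 2 and 1 without Stat3 ko 1. Without Stat3 ko 1 the fibroblast list had 2 calls and a median of 0.56. In the fit of the 8 knockout libraries alone the fibroblast list had 1 call and the endothelial list 0. Of 6 mast cell genes 4 rose, none steadily, with a median of 1.81, and 2 rose without Stat3 ko 1 or without Stat3 ko 2. Cma1, a mast cell chymase gene, stood at 21.5, 12.8, 7.52 and 8.59 FPKM in Stat3 ko and 1.51, 4.36, 1.52 and 1.95 in Chi3l1 ko and rose by 1.996 ± 0.43, a call that ended without Chi3l1 ko 1 (0.0521).

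Interferon, proliferation and antigen presentation genes gave few calls. Of 20 interferon gamma response genes limma called 0, with 1 at an unadjusted p under 0.05, edgeR 0 and DESeq2 1, and the median was 0.16. Without Stat3 ko 1 the median was 0.41 with 2 rises, and without the libraries above 2% mitochondrial counts it was 0.55. Cxcl9 and Cxcl10, chemokines that attract T cells, differed by −0.26 ± 0.43 and −0.104 ± 0.398. The median of 28 type I interferon response genes was −0.50 with 1 call, a rise, and it was −0.01 without Stat3 ko 1 and 0.10 without the libraries above 2% mitochondrial counts. Isg15, a ubiquitin-like protein gene of this response, stood at 17.5, 111, 173 and 221 FPKM in Stat3 ko and 148, 136, 207 and 128 in Chi3l1 ko, with Stat3 ko 1 far below the rest. Among 31 proliferation genes 0 were called by limma, edgeR or DESeq2 and 0 had an unadjusted p under 0.05. The median of −0.39 became −0.03 without Stat3 ko 1 and 0.21 without the libraries above 2% mitochondrial counts. The cycling markers Mki67 and Top2a were lowest in Stat3 ko 1, at 5.17, 12.5, 20.5 and 14.1 and 4.92, 11.04, 22.96 and 16.5 FPKM in Stat3 ko against 14.02, 14.4, 15.8 and 20.3 and 14.7, 17.7, 15.6 and 18.5 in Chi3l1 ko. All 10 MHC class II genes were positive, with a median of 0.78 and 1 call. Limma called 7 without Stat3 ko 1 and 0 without Stat3 ko 2 or Chi3l1 ko 2, edgeR called 2 and DESeq2 6. H2-Aa, a class II chain, differed by 1.04 ± 0.34 (adjusted p = 0.066), passing without WT 2 (0.0460) or Stat3 ko 1 (0.0313). The 18 cytosolic ribosomal protein genes had a median of −0.02 and 0 calls by limma, edgeR or DESeq2, with 1 at an unadjusted p under 0.05. All 13 mitochondrially encoded genes were positive, with 0 calls and 0 at an unadjusted p under 0.05 in limma, 0 calls by edgeR and 2 by DESeq2. Of these, mt-Nd1, a complex I subunit gene, stood at 6049, 4427, 2463 and 1547 FPKM and 1544, 2985, 1853 and 2172.

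**Figure D5:**
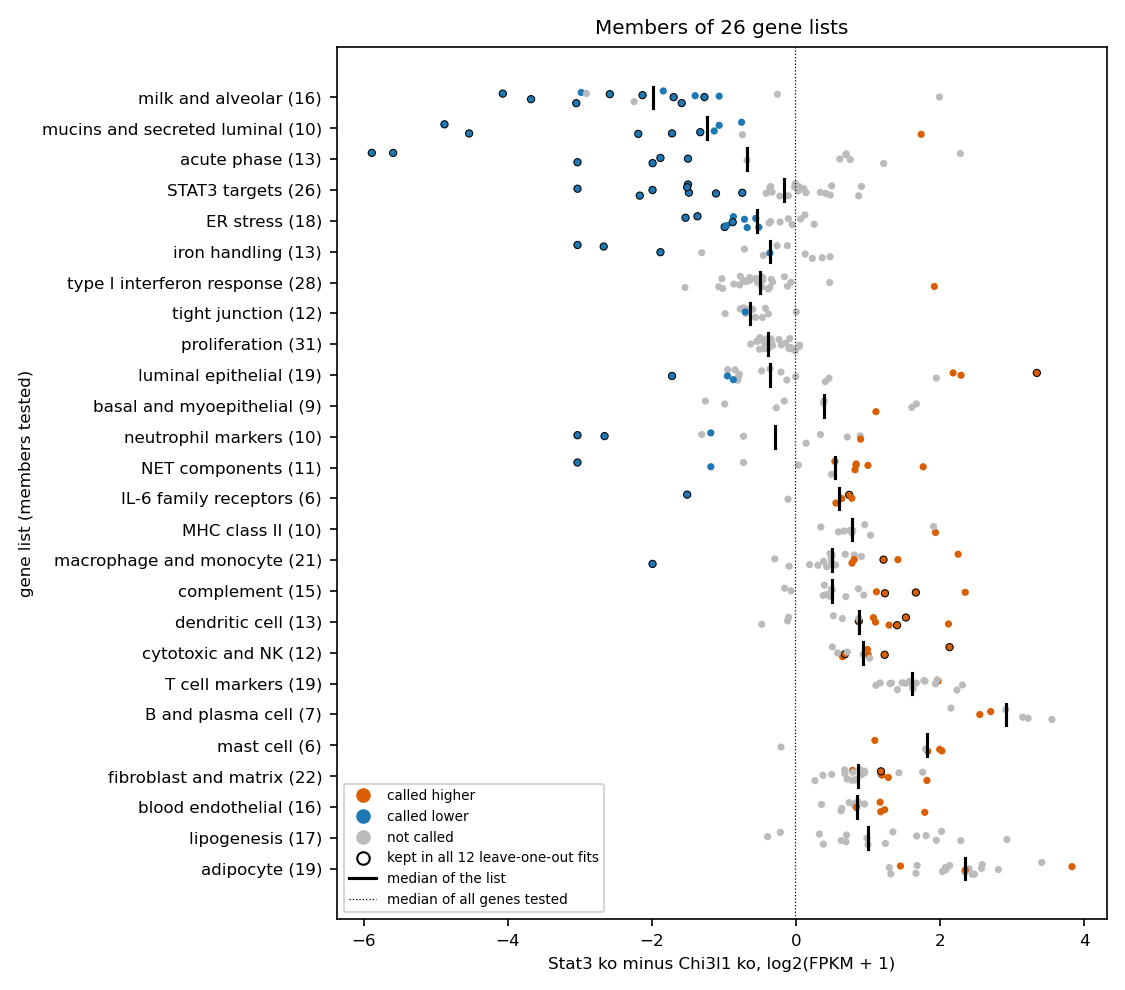
Difference of each tested member of 26 gene lists (horizontal axis, Stat3 ko minus Chi3l1 ko, log2(FPKM + 1)), with genes called higher in orange, called lower in blue and not called in grey, steady calls outlined, the list median as a bar and the median of all genes tested dotted. Milk genes lie mostly left of 0 with a median of −1.99, and adipocyte and T cell markers lie right of 0 with few calls.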

How the data were processed

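RNA sequencing libraries of 12 glands in 3 groups of 4 were compared through the deposited tables. Builds mm10 and GRCm38 and the tools STAR, Trimmomatic, HTSeq, limma and edgeR stand in the submitters' processing notes, with neither versions nor roles. The authors deposited FPKM for 54532 genes, and, in separate tables that were used for their per-library counts only, raw counts of genes. Another 32 per-sample columns of those tables were not used. The deposited FPKM times gene length gave whole counts within 0.01 read, and 0 of 55832 deposited counts differed from them.

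Values were taken as log2(FPKM + 1) and fitted with limma 3.58.1 (intensity trend, 3 group means over 12 libraries, two-sided, Benjamini-Hochberg) in R 4.3.3, for genes that reached 1 FPKM in 4 or more libraries. The scale shrinks differences of genes near 0. Coordinates are the files' own, on GRCm38, and promoters are from RefSeq. The members and gene lists were chosen with earlier results of these data known. Named were Stat3 and Chil1, the 12 largest rises and 12 largest falls among called genes whose groups did not overlap, and from each list up to 4 called members with the lowest adjusted p and the first 2 tested. Some results that this rule names are not reported here. Alternatives were a pseudocount of 0.1, other filters and scalings, array weights, a fit of 8 libraries, the recovered counts in DESeq2 1.42.0 and in edgeR 4.0.16, dropping the 3 libraries above 2% mitochondrial counts, and leaving out each library. Data were simulated for this comparison (13643 genes, equal spread in all groups), with 70 genes changed 1.5-fold, 70 changed 2-fold and 60 changed 4-fold. Of these limma recovered 2.86%, 32.9% and 86.7%. False calls were 1 by limma, 0 by edgeR and 35 by DESeq2. With so few genes changed, a call needed a lower unadjusted p than in the data, where 1799 genes were called. The recovered shares therefore do not carry over to the data. Figures used matplotlib 3.10.9, and tables used scipy 1.17.1, numpy 2.4.6 and pandas 2.3.3 under Python 3.11.15.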

Additional observations from a re-analysis of the deposited data

Results flagged for a closer look

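For the genes named above and for the count totals and mitochondrial shares of the libraries, 188 groups of 4 knockout libraries were screened. The screen sought 1 library whose gap to the nearest other took up more of the group's range than Dixon's 95% critical value. In 12 groups there was such a library, each time for a gene, where chance alone gives about 1 in 20. Values here are log2(FPKM + 1). Chi3l1 ko 2 stood above its group for the fat genes Adipoq (6.89), Fabp4 (7.94) and Ucp1 (6.63) and for Mmp23 (1.79), and below it for Cdhr1 (5.20) and Xbp1 (7.97). Chi3l1 ko 4 was high for Lrg1 (7.95) and low for Mfge8 (8.61), and Chi3l1 ko 3 was high for Ccl5 (4.48). In Stat3 ko, library 1 was high for Adipoq (9.97) and Osmr (2.54), and library 4 was high for Xbp1 (7.13).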

How the results depend on the processing

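No paired analysis was possible because the labels give no replicate numbers shared between the groups. No called gene named above reversed its direction under any alternative run. Against 708 genes higher and 1091 lower, the counts were 430 and 689 with no filter, 166 and 339 in the fit of the 8 knockout libraries alone, 328 higher with a mean of at least 5 FPKM, and 1775 and 1486 with DESeq2, where 54.4% of calls were higher against 39.4%. With a mean of at least 5 FPKM 26.8% were higher. Leaving out 1 library gave 176 to 1242 higher and 435 to 1648 lower. Of distinct gene list members, 82 were higher and 71 lower. The higher ones numbered 28 with no filter, 20 with the 8 libraries, 124 with edgeR, 196 with DESeq2 and 18 to 147 leaving out 1 library, and the lower ones 39 with the 8 libraries and 43 to 95 leaving out 1 library. Of the named genes 71 were called, of which 58 kept the call in each of the 12 fits with 1 library left out and 56 in the fit of the 8 libraries. The motif share fell from 7.02% to 2.55% of promoters in 100 bases, a shorter window. The causes of the other changes were not tested. Other scalings moved the median difference of all genes from −0.02 to −0.02 and −0.08.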

Other observations

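Several lists not described above stood as follows, set against 5.19% of all genes called higher and 8.0% called lower. Among 14 circadian clock genes 2 rose and 2 fell, with a median of 0.15, which was −0.03 without Stat3 ko 1, and no steady call. Of 12 genes of epithelial-mesenchymal transition 4 rose and 1 fell, none steadily, with a median of 0.49, and 1 rose without Stat3 ko 2. Among 9 genes of alternative macrophage activation all were positive, 3 rose and the median was 1.09, and no call was steady, with 1 left without Stat3 ko 1. Of 16 MHC class I presentation genes 3 fell and 0 rose, with a median of −0.21, and 0 fell without Stat3 ko 1 or without Stat3 ko 2, against 2 by edgeR and 3 by DESeq2 with all libraries. The 17 lipogenesis genes had 0 calls in limma, 8 at an unadjusted p under 0.05, 0 calls by edgeR and 8 by DESeq2, and a median of 0.9997. Limma called 6 of them without Chi3l1 ko 2, and the median was 0.36 without Stat3 ko 1. Averaged on the log2(FPKM + 1) scale they reached 7.43 in Stat3 ko 1 and 5.92 in Chi3l1 ko 2, against 4.24 to 4.47 in the other Chi3l1 ko libraries. In the fit of the 8 knockout libraries alone none of the lists of this paragraph had a call.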
